A study of Mus musculus with 12 samples.

Results

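The 10 genes described here belong to the FGF and ERK pathway of mouse embryonic stem cells (ESCs). They were taken by symbol from a deposited expression table of 50978 genes. They are the ligand gene Fgf4, the receptor genes Fgfr1 and Fgfr2, the feedback inhibitors Dusp6, Spry2, Spry4 and Spred1, the ETS transcription factors Etv4 and Etv5, and the immediate early gene Egr1. All 10 were found in the table, and all 10 were among the 12914 genes with more than 1 CPM (reads on a gene, scaled to a common library total) in at least 2 libraries that entered the tests.

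Poly(A) RNA was sequenced from 3 ESC lines with 2 libraries each. All of them were E14 cells grown in 15% serum with LIF. Parental ESCs carried no insert. ESC + H/F-PRAMEL7WT and ESC + H/F-PRAMEL7ΔN expressed HA/FLAG-tagged PRAMEL7 from the CAG promoter at the Rosa26 locus, inserted with Cas9 and selected with puromycin. PRAMEL7 is a leucine-rich repeat protein that partners with the CUL2 ubiquitin ligase, and per the labels the ΔN form lacks 50 amino acids at its N terminus, while the study's text gives another length. Each derived line grew from a single cell, so the transgene, the clone and the selection cannot be told apart in these comparisons. The paired libraries of a line came from separate dishes, and their spread does not measure differences between clones. The 6 chromatin samples of the series were not analysed here.

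Fibroblast growth factors bind receptor tyrosine kinases, which pass the signal through adaptors to RAS, RAF, MEK and ERK. Active ERK phosphorylates transcription factors, and the cell then makes inhibitors of the same cascade, among them the phosphatase DUSP6 and the Sprouty and Spred proteins. Transcripts of these inhibitors and of ETV4, ETV5 and EGR1 are commonly read as a record of ERK activity. In ESCs, autocrine FGF4 is the best known stimulus of the cascade, which prepares naive cells to leave the ground state, while FGFR2 is best known from the primitive endoderm and trophectoderm lineages.

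Between 18247313 and 19847810 reads fell on genes in a library. Replicate libraries correlated at Pearson r = 0.990 in parental ESCs, 0.997 in PRAMEL7WT and 0.995 in PRAMEL7ΔN cells, across genes and on the log2 scale. Pramel7 itself stood at 0.258 and 0.217 CPM in parental ESCs, 51.2 and 46.2 CPM in PRAMEL7WT and 397.7 and 430.9 CPM in PRAMEL7ΔN. Both derived lines thus expressed the transgene, but a total over the gene does not show whether the N-terminal part is missing. The ΔN line held 8.50 times more Pramel7 RNA than the WT line, and the form and the dose of the transgene cannot be told apart. The 10 pluripotency markers summed to between 5151 and 6016 CPM in every library. Of these, 1 was higher and 4 were lower in PRAMEL7WT, where 8.71% of all genes tested were higher and 16.3% lower. The higher one was Utf1 by 0.73 on the log2 scale (limma, adjusted p = 0.0155). Among the 4 lower were Klf4 by -0.66 (adjusted p = 0.0118) and Nanog by -0.36 (adjusted p = 0.0178). In PRAMEL7ΔN 1 of the 10 passed, where 19.9% of all genes did: Klf2 fell by 1.34 (adjusted p = 0.000168). Between the derived lines 6 of the 10 passed, against 20.4% of all genes. The part of these markers in the values below was not tested. In bulk RNA, fewer cells expressing a gene and less RNA per cell cannot be told apart.

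The sequence just before the start site is shown for 3 members with a different outcome. Dusp6 was higher in both derived lines, Fgfr2 was lower in PRAMEL7ΔN, and Spry2 passed no test. Each run is the 250 bases before the RefSeq start (GRCm38.p6), 5′ to 3′ on the strand of the gene, and capitals mark the CCAAT box, here as ATTGG on the other strand.
Dusp6, chr10:99262981-99263230, plus strand: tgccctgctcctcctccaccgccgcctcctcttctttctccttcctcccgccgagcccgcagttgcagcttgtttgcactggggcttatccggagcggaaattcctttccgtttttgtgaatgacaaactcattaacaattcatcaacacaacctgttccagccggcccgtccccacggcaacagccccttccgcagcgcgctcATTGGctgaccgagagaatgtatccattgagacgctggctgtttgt
Fgfr2, chr7:130266809-130267058, minus strand: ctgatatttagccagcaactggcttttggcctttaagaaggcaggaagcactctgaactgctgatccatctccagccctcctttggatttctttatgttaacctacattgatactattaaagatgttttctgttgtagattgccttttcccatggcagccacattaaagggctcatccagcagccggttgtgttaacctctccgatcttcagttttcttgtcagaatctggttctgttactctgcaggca
Spry2, chr14:105896820-105897069, minus strand: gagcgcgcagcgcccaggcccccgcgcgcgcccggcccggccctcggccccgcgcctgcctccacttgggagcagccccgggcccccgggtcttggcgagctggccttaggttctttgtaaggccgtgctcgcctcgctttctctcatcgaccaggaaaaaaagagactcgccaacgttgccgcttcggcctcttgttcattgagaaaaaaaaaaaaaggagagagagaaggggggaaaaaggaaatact
A search on both strands covered the ETS-type motif CCGGAAG, the AP-1 motif TGACTCA, the GC box GGGCGG and the CCAAT box. CCAAT occurred in 33.8% of 32851 RefSeq promoter windows and, of these 3, in that of Dusp6. GGGCGG was present in 32.7% of all windows and in none of the 3. CCGGAAG was found in 6.91% and TGACTCA in 4.46% of windows, and no member window held either. Among the other members with an entry, Fgf4 and Etv5 held both the GC box and the CCAAT box, and Spred1 held the GC box. Windows were matched for 6 of the 10 members, and Fgfr1, Spry4, Etv4 and Egr1 are named only. GC content was 56.4% in the Dusp6, 62.4% in the Spry2 and 44% in the Fgfr2 window, against a median of 52.4% over all windows.

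Levels of different genes were set side by side per kilobase of annotated exon. In parental ESCs Etv5 stood highest at 118.9 ± 9.13 CPM per exon kb (SD, n = 2), followed by Fgf4 at 62.9 ± 2.31 and Etv4 at 53.6 ± 7.52. Spry2 at 33.6 ± 2.89 and Spry4 at 32.9 ± 2.64 did not differ beyond their spread. Dusp6 at 12.04 ± 0.376, Egr1 at 8.34 ± 0.765 and Spred1 at 5.59 ± 0.685 came next. The receptors closed the order, with Fgfr1 at 3.72 ± 0.192 and Fgfr2 at 0.559 ± 0.204 CPM per exon kb. In both derived lines Etv4 stood above Fgf4, with 66.4 against 58.1 CPM per exon kb in PRAMEL7WT and 74.5 against 60.8 in PRAMEL7ΔN. In PRAMEL7ΔN Spry4, at 51.0, also stood above Spry2, at 32.3 CPM per exon kb.

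**Figure D1:**
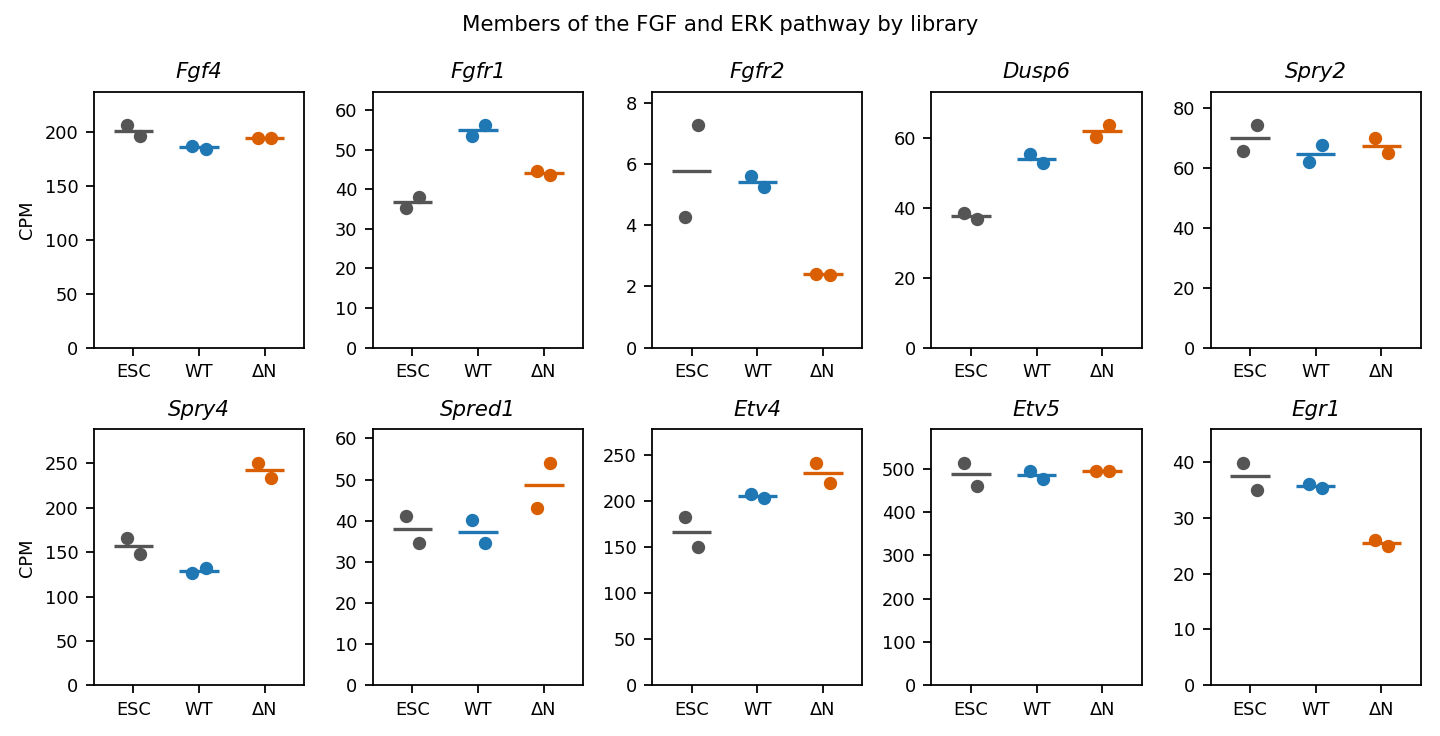
Level of each member in CPM (vertical axis from 0) in the 2 libraries (points) of parental ESCs (ESC), ESC + H/F-PRAMEL7WT (WT) and ESC + H/F-PRAMEL7ΔN (ΔN), with their mean (line). Spry4 was lowest in WT and highest in ΔN, Dusp6 was above parental in both derived lines, Fgfr2 and Egr1 were lowest in ΔN, and Etv5 lay between 461.2 and 514.2 CPM in all 6 libraries.

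The first question was whether the pathway differed between ESCs with full-length PRAMEL7 and their parental line. In PRAMEL7WT, 2 of the 10 members passed an adjusted p of 0.05 (limma, Benjamini-Hochberg over all genes tested), and both were higher: the receptor gene Fgfr1 and the phosphatase gene Dusp6. Over all genes tested 25.0% passed, with 8.71% higher and 16.3% lower, so the 20% of members that passed is near the background. With an additional limit of 0.58 on the absolute log2 fold change no member passed, against 12.5% of all genes. The median log2 fold change was -0.03 over the members and -0.08 over all genes.

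In PRAMEL7ΔN against parental ESCs, 5 of the 10 members passed, against 19.9% of all genes tested. Dusp6, Spry4 and Etv4 were higher, where 6.25% of all genes were, and Fgfr2 and Egr1 were lower, where 13.6% of all genes were. The fold limit kept Dusp6, Spry4 and Fgfr2, against 11.3% of all genes. The members' median log2 fold change was 0.14, and that of all genes was -0.06. Both comparisons share the parental libraries.

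The direct comparison set the derived lines against each other, where the deletion, the dose of the transgene and the clone cannot be told apart. Against PRAMEL7ΔN, PRAMEL7WT cells had more Fgfr2 and Egr1 RNA and less Spry4 RNA, so 3 of the 10 members passed, where 20.4% of all genes did, 10.9% higher and 9.44% lower. Spry4 and Fgfr2 also passed the fold limit, against 11.3% of all genes. The median log2 fold change was -0.06 over the members and -0.02 over all genes.

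**Figure D2:**
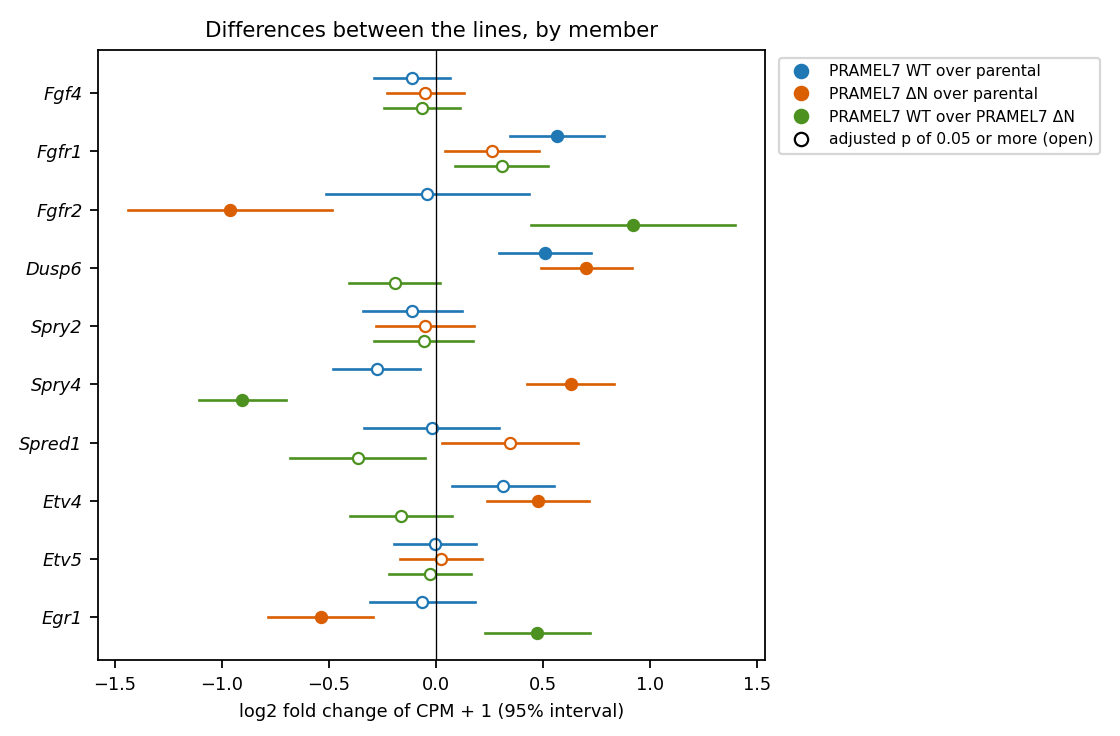
Log2 fold change of CPM + 1 (horizontal axis) for each member in the 3 comparisons, with the 95% interval of the moderated fit (bars), filled where the adjusted p was under 0.05. Spry4 ran from 0.63 in ΔN to -0.28 in WT relative to parental ESCs, and the values of Fgf4, Spry2 and Etv5 lay within 0.12 of 0 in all comparisons.

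Fgf4, the ligand gene (chr7:144847367-144865243), was measured at 206.3 and 195.8 CPM in parental ESCs, 187.1 and 184.4 in PRAMEL7WT and 194.0 and 194.5 in PRAMEL7ΔN. Both derived lines lay below both parental libraries, but by a margin within the error of the fit. The log2 fold change was -0.11 in PRAMEL7WT (95% interval -0.29 to 0.06, adjusted p = 0.316) and -0.05 in PRAMEL7ΔN (-0.23 to 0.13, adjusted p = 0.714). Separation of the libraries of 1 line from those of another was common. Of 12914 genes tested, 3134 lay wholly above and 5163 wholly below parental ESCs in PRAMEL7WT, and 2788 and 4578 in PRAMEL7ΔN. In PRAMEL7WT against PRAMEL7ΔN, 4289 lay wholly above and 4598 wholly below.

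Fgfr1, the main FGF receptor gene of ESCs (chr8:25513654-25575718), had 35.4 and 38.1 CPM in parental ESCs, 53.5 and 56.2 in PRAMEL7WT and 44.6 and 43.7 in PRAMEL7ΔN. The 3 lines did not overlap, with PRAMEL7WT highest and parental ESCs lowest. Fgfr1 rose by a log2 fold change of 0.57 ± 0.10 (SE) in PRAMEL7WT (1.49-fold, adjusted p = 0.00439). Its values of 0.26 in PRAMEL7ΔN against parental ESCs (95% interval 0.04 to 0.48, adjusted p = 0.0929) and 0.31 in PRAMEL7WT against PRAMEL7ΔN (0.09 to 0.53, adjusted p = 0.0529) did not pass. Without the second PRAMEL7WT library the rise of 0.53 had an adjusted p of 0.0642. The value against PRAMEL7ΔN passed in 7 of 18 alternative settings, with an adjusted p from 0.0104 to 0.308 over them, among them the fits without either parental library (adjusted p = 0.011 without the first and 0.0113 without the second), and that in PRAMEL7ΔN without the second parental library (0.31, adjusted p = 0.0462). The antisense gene Gm16159 shares 164 exon bases with Fgfr1, and the library kit does not mark strand, but Gm16159 had at most 2 reads in a library.

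Fgfr2 (chr7:130162451-133123350) was the least abundant member, with 83 and 134 reads in parental ESCs, 111 and 95 in PRAMEL7WT and 48 and 45 in PRAMEL7ΔN. These correspond to 4.28 and 7.27, 5.62 and 5.23, and 2.41 and 2.38 CPM. Both PRAMEL7ΔN libraries lay below all others, while the PRAMEL7WT libraries fell between the parental ones. Fgfr2 fell by 0.96 on the log2 scale in PRAMEL7ΔN against parental ESCs (SE 0.21, adjusted p = 0.0124, a ratio of means of 0.414), and was 0.92 higher in PRAMEL7WT than in PRAMEL7ΔN (adjusted p = 0.0153). The PRAMEL7WT value of -0.04 had a 95% interval from -0.52 to 0.43. The fall in PRAMEL7ΔN was -0.64 without the second and -1.29 without the first parental library, and it no longer passed without the first or the second PRAMEL7ΔN library (adjusted p = 0.0817 and 0.0787). The difference between the derived lines no longer passed without any 1 of their 4 libraries (adjusted p from 0.0768 to 0.113). With no filter on low genes neither passed (adjusted p = 0.0739 and 0.0878). The annotated span of Fgfr2 covers 2960900 bases, crosses 69 other genes and shares 314 exon bases with Ctbp2 on the same strand. Ctbp2 had between 4598 and 5490 reads in a library and a log2 fold change of 0.08 in PRAMEL7ΔN (adjusted p = 0.607). How reads in the shared bases were assigned is not given in the sources used here.

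Dusp6 encodes a phosphatase that acts on ERK itself (chr10:99263231-99267489). It was detected at 38.5 and 36.9 CPM in parental ESCs, 55.4 and 52.9 in PRAMEL7WT and 60.3 and 63.7 in PRAMEL7ΔN. All 4 libraries of the derived lines lay above both parental libraries. Dusp6 rose by 0.51 ± 0.10 in PRAMEL7WT (1.44-fold, adjusted p = 0.0060) and by 0.70 ± 0.10 in PRAMEL7ΔN (1.64-fold, adjusted p = 0.00131). The difference of -0.19 between PRAMEL7WT and PRAMEL7ΔN did not pass (95% interval -0.41 to 0.02, adjusted p = 0.178). The PRAMEL7WT rise no longer passed without the first (0.48, adjusted p = 0.0806) or the second (0.54, adjusted p = 0.0578) PRAMEL7WT library.

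Spry4, a Sprouty gene that restrains signalling upstream of ERK (chr18:38586247-38601415), was the member with the smallest adjusted p between the derived lines. It had 165.4 and 147.6 CPM in parental ESCs, 126.1 and 131.7 in PRAMEL7WT and 250.8 and 233.9 in PRAMEL7ΔN. No library of 1 line overlapped with those of another, and the derived lines lay on opposite sides of parental ESCs. Spry4 rose by 0.63 ± 0.09 in PRAMEL7ΔN (1.55-fold, adjusted p = 0.00182). In PRAMEL7WT the value of -0.28 (95% interval -0.48 to -0.07) had an adjusted p of 0.0513, and of 0.00624 without the second parental library, where it was -0.36. PRAMEL7WT lay 0.91 below PRAMEL7ΔN on the log2 scale (SE 0.09, adjusted p = 0.000253), a ratio of means of 0.532. The PRAMEL7ΔN rise and the difference between the derived lines passed under all 19 alternative settings, with an adjusted p of at most 0.0321 and 0.0096.

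Spry2, the other Sprouty gene (chr14:105891947-105896819), had 65.8 and 74.3 CPM in parental ESCs, 61.9 and 67.7 in PRAMEL7WT and 70.1 and 64.8 in PRAMEL7ΔN. The lines overlapped, and no comparison passed. Its 95% intervals were -0.34 to 0.12 in PRAMEL7WT and -0.28 to 0.18 in PRAMEL7ΔN.

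Spred1 encodes a protein that brings the RAS inactivator neurofibromin to the membrane (chr2:117121374-117182279). It was found at 41.2 and 34.7 CPM in parental ESCs, 40.2 and 34.5 in PRAMEL7WT and 43.1 and 54.1 in PRAMEL7ΔN. Both PRAMEL7ΔN libraries were above the rest, but they differed from each other by more than the distance to parental ESCs. The log2 fold change was 0.35 in PRAMEL7ΔN (95% interval 0.03 to 0.66, adjusted p = 0.120) and -0.37 in PRAMEL7WT against PRAMEL7ΔN (adjusted p = 0.0970). Without the first parental library the PRAMEL7ΔN value was 0.47 with an adjusted p of 0.013, and the difference between the derived lines passed without either parental library (adjusted p = 0.015 without the first and 0.0148 without the second).

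Etv4, an ETS factor of the PEA3 group (chr11:101769742-101785371), was measured at 183.0 and 150.0 CPM in parental ESCs, 208.2 and 204.1 in PRAMEL7WT and 242.1 and 220.2 in PRAMEL7ΔN. All libraries of the derived lines were above both parental libraries, which lay apart from each other. Etv4 rose by 0.48 ± 0.11 in PRAMEL7ΔN (1.39-fold, adjusted p = 0.0131). The PRAMEL7WT value of 0.31 (95% interval 0.08 to 0.55) had an adjusted p of 0.0559, and of 0.00113 without the first parental library, where it was 0.46. The PRAMEL7ΔN rise no longer passed without the first (0.41, adjusted p = 0.121) or the second (0.54, adjusted p = 0.0526) PRAMEL7ΔN library. With RPKM left unconverted or with no filter on low genes, the PRAMEL7ΔN rise of Etv4 did not pass either. Etv4 lies on chromosome 11, where the median log2 fold change of 1102 tested genes was -0.36 in PRAMEL7WT and -0.33 in PRAMEL7ΔN. It was thus higher in a region where most genes were lower. Within 5 Mb of Etv4, 196 genes had medians of -0.38 and -0.34. The source of the chromosome-wide shift was not tested.

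Etv5, the closest relative of Etv4 here (chr16:22381309-22439719), was the steadiest member. It had 514.2 and 461.2 CPM in parental ESCs, 495.1 and 476.2 in PRAMEL7WT and 495.4 and 495.2 in PRAMEL7ΔN. The libraries of both derived lines fell between those of parental ESCs. Its 95% intervals were -0.19 to 0.19 in PRAMEL7WT and -0.17 to 0.22 in PRAMEL7ΔN.

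Egr1 encodes a zinc finger factor induced within minutes of ERK activation (chr18:34859823-34864984). It had 39.8 and 35.0 CPM in parental ESCs, 36.0 and 35.3 in PRAMEL7WT and 25.9 and 24.9 in PRAMEL7ΔN. Only the PRAMEL7ΔN libraries stood apart, below the other 4. Egr1 fell by 0.54 on the log2 scale in PRAMEL7ΔN (SE 0.11, adjusted p = 0.00854, a ratio of means of 0.679) and was 0.47 higher in PRAMEL7WT than in PRAMEL7ΔN (adjusted p = 0.0154). The PRAMEL7WT value was -0.06 (95% interval -0.31 to 0.18). The fall no longer passed without the first (-0.57, adjusted p = 0.0592) or the second (-0.51, adjusted p = 0.073) PRAMEL7ΔN library, nor did the difference between the derived lines without any 1 of their 4 libraries (adjusted p from 0.0679 to 0.127).

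**Figure D3:**
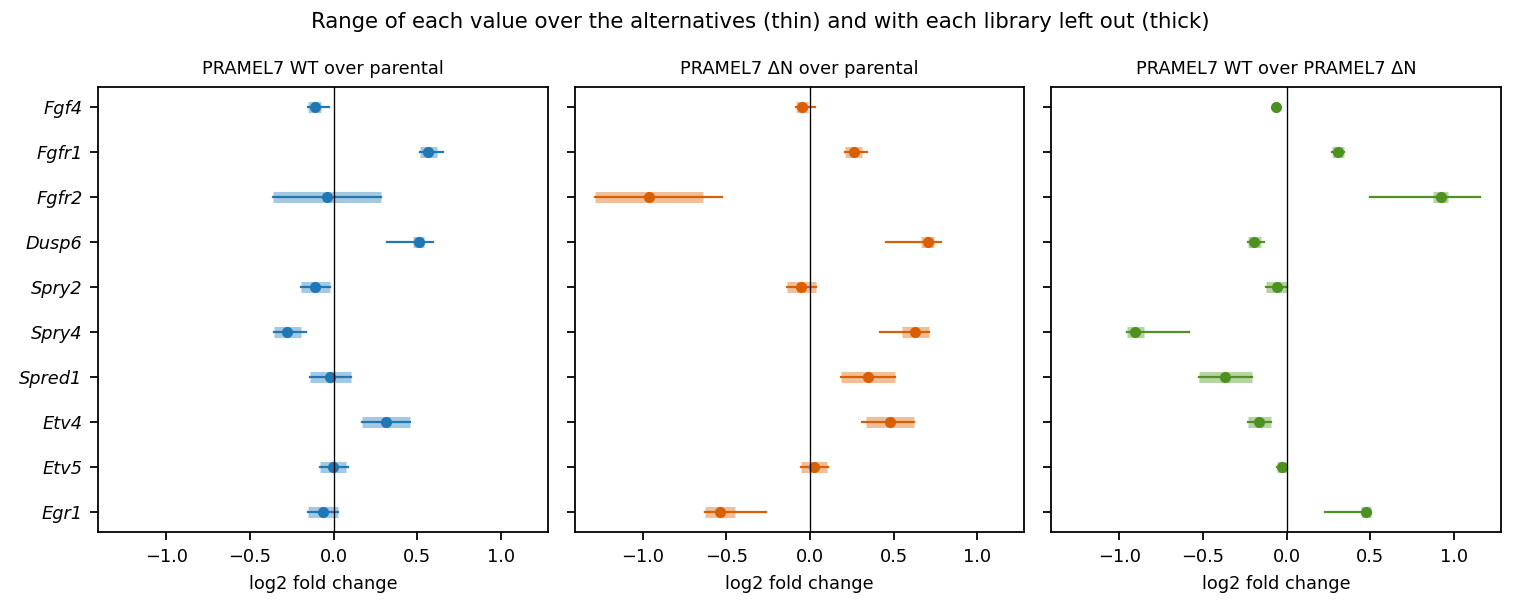
Log2 fold change of each member (points) in the 3 comparisons, with its range over all alternative settings (thin lines) and over the fits that leave out 1 library (thick lines). Dusp6 and Spry4 stayed above 0 in ΔN against parental ESCs and Spry4 stayed between -0.96 and -0.58 in WT against ΔN, while the ranges of Fgfr2, Spred1, Etv5 and Egr1 crossed 0 in WT against parental ESCs.

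By role, then, the 4 feedback inhibitors did not move as a block. In PRAMEL7ΔN 2 of 4 were higher and none was lower, with log2 fold changes from -0.05 to 0.70, where 6.25% of all genes were higher and 13.6% lower. In PRAMEL7WT 1 of 4 was higher, with a range from -0.28 to 0.51, where 8.71% of all genes were higher and 16.3% lower. The ligand passed in no comparison, and the receptors passed in different ones, Fgfr1 in PRAMEL7WT and Fgfr2 in PRAMEL7ΔN. In PRAMEL7ΔN, the transcripts most often read as ERK records were split: Dusp6, Spry4 and Etv4 were higher, Egr1 was lower, and Spry2, Spred1 and Etv5 passed no test.

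A list of 71 other genes of the pathway was examined by the same roles, and 63 of them were tested. In PRAMEL7WT against parental ESCs 15 were higher and 9 were lower. In PRAMEL7ΔN 12 were higher and 13 lower, and between the derived lines 16 were higher in PRAMEL7WT and 9 lower. In all, 38.1%, 39.7% and 39.7% of the 63 passed, against 25.0%, 19.9% and 20.4% of all genes. The list's median log2 fold changes were 0.02, 0.02 and 0.00, beside -0.08, -0.06 and -0.02 over all genes.

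**Figure D4:**
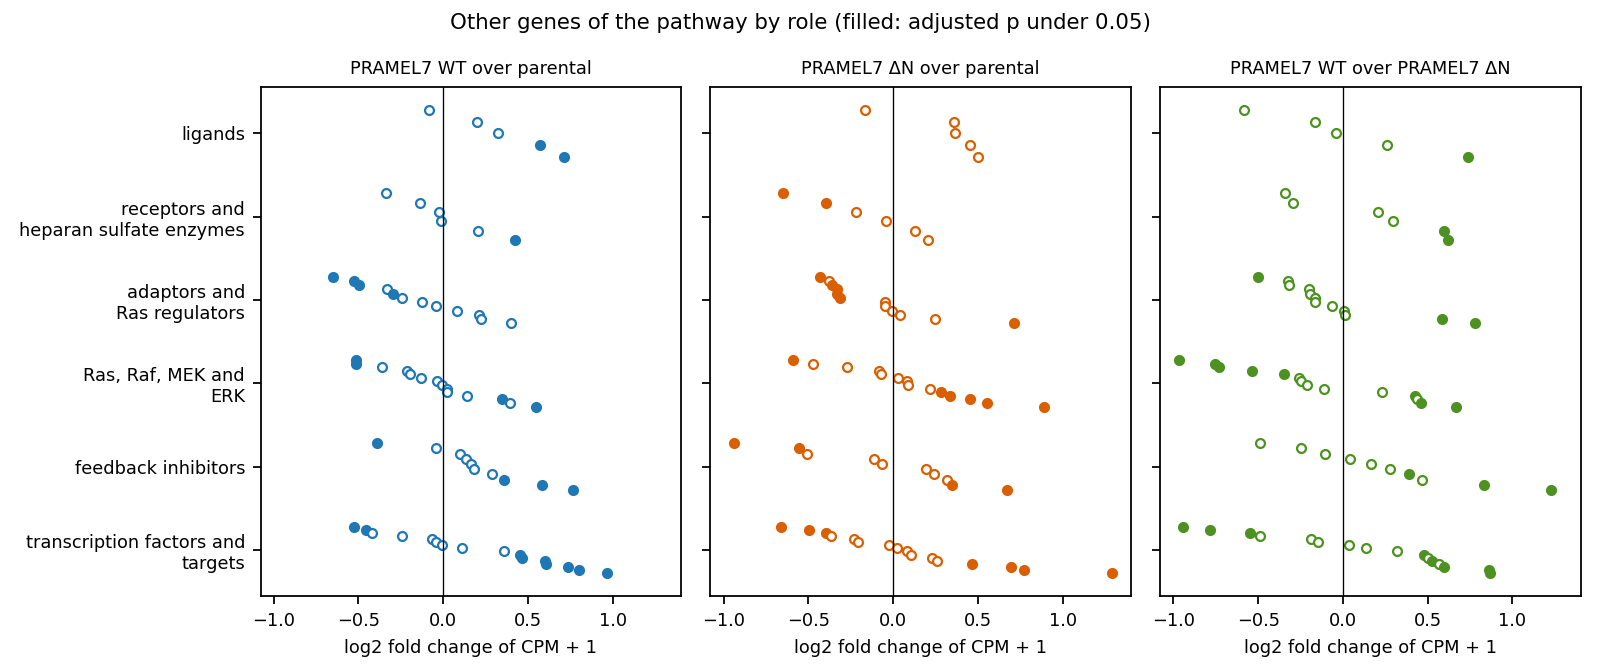
Log2 fold change of CPM + 1 (horizontal axes) of the 63 other pathway genes tested, grouped by role (rows), in the 3 comparisons, filled where the adjusted p was under 0.05. Every role except the ligands held genes on both sides of 0 that passed in at least 1 comparison.

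The shares of all genes to read the counts by role against were 8.71% higher and 16.3% lower in PRAMEL7WT, 6.25% higher and 13.6% lower in PRAMEL7ΔN, and 10.9% higher and 9.44% lower between the derived lines. Among the other ligands, 2 of 5 were higher in PRAMEL7WT and none passed in PRAMEL7ΔN. Of 6 other receptors and heparan sulfate enzymes, 1 was higher in PRAMEL7WT and 2 were lower in PRAMEL7ΔN. One of these was the receptor-like gene Fgfrl1, which had 9.55 and 12.8 CPM in parental ESCs, 10.3 and 11.5 in PRAMEL7WT and 7.03 and 6.39 in PRAMEL7ΔN. As with Fgfr2, both PRAMEL7ΔN libraries lay below the others. Fgfrl1 fell by 0.65 on the log2 scale in PRAMEL7ΔN (adjusted p = 0.0231).

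Of 12 adaptors and RAS regulators, 4 were lower and none higher in PRAMEL7WT, and 5 were lower and 1 higher in PRAMEL7ΔN. These were 33.3% and 50% of the group, against 25.0% and 19.9% of all genes. The adaptor gene Crk was lower in PRAMEL7WT by -0.65 (adjusted p = 0.00306), with 76.0 and 78.0 CPM against 122.0 and 121.1 in parental ESCs. Nf1, which encodes the RAS inactivator neurofibromin, was lower by -0.53 (adjusted p = 0.00725), with 33.3 and 33.9 CPM against 46.1 and 51.6. Both genes lie on chromosome 11. In the same comparison, 133 genes within 5 Mb of Crk and 118 within 5 Mb of Nf1 had medians of -0.36 and -0.32. Crk and Nf1 were also among the genes lower in PRAMEL7ΔN, by -0.33 each, where the same neighbours had medians of -0.35 and -0.33. The other genes of the group were not compared with their chromosomes, and its shares were not set against those of chromosome 11.

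Of 14 RAS, RAF, MEK and ERK genes, 2 were higher and 2 lower in PRAMEL7WT, and 5 were higher and 1 lower in PRAMEL7ΔN. Between the derived lines 3 were higher in PRAMEL7WT and 5 lower. The shares that passed were 28.6%, 42.9% and 57.1%, against 25.0%, 19.9% and 20.4% of all genes. Braf, a kinase gene of the cascade, had 30.2 and 33.5 CPM in parental ESCs, 21.8 and 22.2 in PRAMEL7WT and 41.1 and 47.0 in PRAMEL7ΔN. The derived lines lay on opposite sides of parental ESCs, as for Spry4, and differed by -0.96 (SE 0.11, adjusted p = 0.000651). Braf lies on chromosome 6, where the median of 603 genes was -0.26 in PRAMEL7WT, 0.25 in PRAMEL7ΔN and -0.39 between the derived lines, and that of 45 genes within 5 Mb was -0.53 between the derived lines. The source of this shift was not tested. The scaffold gene Ksr2 rose by 0.89 in PRAMEL7ΔN (adjusted p = 0.00698), from 34 and 28 reads in parental ESCs to 86 and 66.

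Of 10 other feedback inhibitors, 3 were higher and 1 lower in PRAMEL7WT, and 2 were higher and 2 lower in PRAMEL7ΔN, which is 40% in each, against 25.0% and 19.9% of all genes. Dusp4, which encodes a nuclear ERK phosphatase, had 6.04 and 10.9 CPM in parental ESCs, 10.0 and 10.4 in PRAMEL7WT and 4.01 and 3.54 in PRAMEL7ΔN. Unlike its relative Dusp6, it was lowest in PRAMEL7ΔN, by -0.94 against parental ESCs (SE 0.23, adjusted p = 0.0180), and it was 1.23 higher in PRAMEL7WT than in PRAMEL7ΔN (adjusted p = 0.00536). Dusp7, another ERK phosphatase gene, rose by 0.77 in PRAMEL7WT (adjusted p = 0.00699), with 10.6 and 11.3 CPM against 5.62 and 6.40 in parental ESCs.

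Of 16 other transcription factors and targets, 7 were higher and 2 lower in PRAMEL7WT, and 4 were higher and 3 lower in PRAMEL7ΔN, which is 56.3% and 43.8%, against 25.0% and 19.9% of all genes. The immediate early gene Junb rose by 0.96 in PRAMEL7WT (adjusted p = 0.00783), with 24.0 and 34.4 CPM against 12.3 and 16.5 in parental ESCs, and it was 0.86 higher in PRAMEL7WT than in PRAMEL7ΔN (adjusted p = 0.0136). Phlda1, a growth factor-induced gene, was higher in both derived lines, by 0.80 in PRAMEL7WT (adjusted p = 0.0101) and 1.29 in PRAMEL7ΔN (adjusted p = 0.00112), from 45 and 34 reads in parental ESCs to 83 and 82 and to 143 and 112. The stress-induced gene Ier3 fell by 0.53 in PRAMEL7WT (adjusted p = 0.0311).

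Myc, a growth-promoting transcription factor gene, had 46.2 and 40.5 CPM in parental ESCs, 43.6 and 42.4 in PRAMEL7WT and 76.3 and 73.1 in PRAMEL7ΔN. It rose by 0.77 in PRAMEL7ΔN (adjusted p = 0.00109), and was 0.78 lower on the log2 scale in PRAMEL7WT than in PRAMEL7ΔN, a log2 fold change of -0.78 (adjusted p = 0.000956). The cyclin gene Ccnd1 followed the other order, with 148.4 and 142.9 CPM in PRAMEL7WT and 80.3 and 78.8 in PRAMEL7ΔN, a log2 fold change of 0.86 (adjusted p = 0.000708). Of the AP-1 genes, Jun fell by 0.66 in PRAMEL7ΔN (adjusted p = 0.0327) and Fosl1 was lower in PRAMEL7WT than in PRAMEL7ΔN by -0.94 (adjusted p = 0.00561), both at under 5 CPM.

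Markers of other cell types were read beside these values. The shares of all genes tested were 8.71% higher and 16.3% lower in PRAMEL7WT, and 6.25% higher and 13.6% lower in PRAMEL7ΔN. The 7 markers of the post-implantation epiblast summed to between 174.0 and 202.8 CPM in parental ESCs, 324.3 and 332.0 in PRAMEL7WT and 138.9 and 150.9 in PRAMEL7ΔN. Nearly all of these sums came from Dnmt3b and Otx2. Of the 5 tested, 3 were higher in PRAMEL7WT (Dnmt3b, Otx2 and Fgf15) and 1 was lower in PRAMEL7ΔN (Otx2). The defining marker Fgf5 had at most 1 read in a library. The 8 trophectoderm markers summed to between 91.6 and 133.9 CPM over all libraries. In PRAMEL7ΔN 4 of the 5 tested, Eomes, Krt8, Krt18 and Hand1, were higher and Tfap2c was lower, while Cdx2, Elf5 and Gata3 each stayed under 1 CPM in every library. The 9 primitive endoderm markers summed to between 626.4 and 759.2 CPM, nearly all from Lama1 and Sparc, and Gata6, Sox17 and Foxa2 were under 1 CPM throughout. Of the 6 tested, Gata4 was higher and Pdgfra lower in both derived lines, and Sox7 was higher in PRAMEL7WT, all of them at under 7 CPM. The 8 fibroblast markers summed to 41.9 and 55.6 CPM in parental ESCs, 21.1 and 22.4 in PRAMEL7WT and 43.7 and 38.8 in PRAMEL7ΔN, mostly from Thy1. Both tested, Thy1 and Col1a1, were lower in PRAMEL7WT (log2 fold changes -1.08 and -1.02, adjusted p = 0.00147 and 0.0109), and Twist2, Dcn and Lum were at 0 in every library. The part of these cell states in the members' values was not tested.

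Over the 6 libraries, the gene whose log2 profile was most like that of each member was sought among 8559 genes (8560 for Fgfr2) with a mean of at least 10 CPM. These were Bcl6b for Fgf4, Snx9 for Fgfr1, Ncoa2 for Fgfr2, Ap1m2 for Dusp6, Slx4 for Spry2, Islr2 for Spry4, Bin3 for Spred1, Srxn1 for Etv4, Tlcd1 for Etv5 and Abr for Egr1. Pearson r lay between 0.986 for Spred1 and 0.999 for Spry4. With only 6 points in 3 lines such values are common: 144 genes had r above 0.95 with Fgfr1 and 125 with Spry4, against 10 with Spry2 and 13 with Etv5.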

How the data were processed

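RNA was measured in 6 libraries of 3 ESC lines, grouped by the labels. Single-end reads were filtered for ribosomal RNA (SortMeRNA), trimmed (Trimmomatic) and aligned to mm10 (STAR) by the authors, who deposited RPKM values per gene from their own pipeline. The submitters' processing notes also name Subread 1.4.6-p4, whose role is not given in the sources used here, and Bowtie2 2.3.4.3 and deepTools 3.2.1, which the study's methods give for the chromatin reads. Further deposited files hold the authors' own comparisons, with fold changes and p-values, and were not used.

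The length behind each RPKM was sought from its steps: for values of up to 20 reads, 98.1% to 98.4% per library were whole within 0.1 reads with the gene span as length, and 40.1% to 41.9% with the exon length. Values were therefore multiplied by the GENCODE gene span to give CPM and reads. For CPM all libraries were divided by the same number, their mean total, so the authors' scaling between libraries was kept. Of 50978 genes, 47940 were used; 2796 names had no match, 66 had several and 176 were repeated or turned into dates.

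Genes above 1 CPM in at least 2 libraries (12914) entered limma 3.58.1 (R 4.3.3) on log2(CPM + 1) with a mean-variance trend, all 3 lines in 1 fit, with Benjamini-Hochberg adjustment and a threshold of 0.05. Fold changes on this scale understate the change of low genes. Data were simulated for PRAMEL7WT against parental ESCs (12914 genes), with 200 genes changed by a log2 of 1. Of these 96% were recovered, and 10 unchanged genes were called. The simulated dispersion was equal in all lines, and the least abundant genes and smaller changes were left out. In the data, replicate differences had an SD of 0.306 in parental ESCs and 0.185 in PRAMEL7WT cells, so the recovery may differ there. P-values measure only the spread between dishes of 1 line, and read numbers cover counting error only.

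The genes named are all 10 members, the 3 other pathway genes with the largest passing change per comparison and direction, the gene most like each member, and Pramel7. Ctbp2 and Gm16159 were named for their overlap, and single markers after their values were seen. Members and lists were chosen with earlier results of these data known. Alternatives were other pseudocounts, filters, scalings and models, RPKM without conversion, a replicate block and leaving out each library.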

Additional observations from a re-analysis of the deposited data

Results flagged for a closer look

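Spry4 was singled out because the direct test between the derived lines passed and their values against parental ESCs had opposite signs. Fgfr2 and Egr1 also passed the direct test (limma, adjusted p = 0.0153 and 0.0154), but their values against parental ESCs did not have opposite signs. In PRAMEL7WT these were near 0, at -0.04 and -0.06, did not pass, and the libraries overlapped with the parental ones. For Spry4 the log2 fold change of PRAMEL7WT against PRAMEL7ΔN was -0.905 (adjusted p = 0.000253). Against parental ESCs it was -0.28 in PRAMEL7WT, which did not pass (adjusted p = 0.0513), and 0.63 in PRAMEL7ΔN (adjusted p = 0.00182). Both PRAMEL7WT libraries lay below and both PRAMEL7ΔN libraries above both parental libraries.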

How the results depend on the processing

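With 2 libraries a line, calls rest on few degrees of freedom, and a fit without 1 library assumes that the lone library varies like the others. The number of members that passed was 2 in PRAMEL7WT against parental ESCs, 5 in PRAMEL7ΔN against parental ESCs and 3 between the derived lines. Without conversion of RPKM, which leaves 2347 genes to test, it was 1 and 3 in the first 2 comparisons. Of all genes 361 and 271 passed there. With no filter it was 3 in PRAMEL7ΔN, where 24916 genes were tested and 1695 passed. With the fold limit and either an adjusted or an unadjusted p it was 0 in PRAMEL7WT and 3 in PRAMEL7ΔN. A fit of the compared lines only gave 5 between the derived lines. The number of all genes that passed also rose there, from 2628 in the main fit to 4647 of 12914. The cause of that change was not tested. Leaving out 1 library gave 0 to 3, 2 to 6 and 1 to 5 members. No shared origin of equal replicate numbers is stated, and the correlations of replicate differences were 0.207, -0.249 and -0.103. The replicate block gave 3, 5 and 3 members, the third being Etv4 in PRAMEL7WT (adjusted p = 0.0499). A crossed replicate block, chosen after seeing the data, gave 4, 6 and 5. Of all 12914 genes, 2729, 2112 and 2181 passed with the replicate block and 4435, 3417 and 3642 with the crossed one. In the main fit 3234, 2566 and 2628 did.

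Values that had not passed and lay near 0 changed sign. In PRAMEL7WT, median-ratio scaling gave 0.0341 for Fgfr2, 0.0661 for Spred1, 0.0847 for Etv5 and 0.0227 for Egr1, upper-quartile scaling 0.0229, 0.0528, 0.0709 and 0.0093, and quantile normalization 0.104 for Fgfr2, 0.0530 for Spred1 and 0.0106 for Egr1. In PRAMEL7ΔN, median-ratio scaling gave 0.0246 for Fgf4 and 0.0211 for Spry2, and upper-quartile scaling 0.0315 and 0.0280. With 1 library left out, the PRAMEL7WT values ran from -0.364 to 0.282 for Fgfr2, -0.143 to 0.101 for Spred1, -0.0825 to 0.0740 for Etv5 and -0.155 to 0.0273 for Egr1. The PRAMEL7ΔN values ran from -0.138 to 0.0348 for Spry2 and from -0.0538 to 0.103 for Etv5, and Spry2 ran from -0.121 to 0.0052 between the derived lines. Median-ratio scaling moved the median of all genes in PRAMEL7WT from -0.08 to 0.00, and under it and upper-quartile scaling Etv4 passed in PRAMEL7WT (adjusted p = 0.0259 and 0.0336) and Fgfr1 in PRAMEL7ΔN (0.0402 and 0.0384).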
